A study of Homo sapiens with 12 samples.

Results

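The genes described here are the death receptors and the first intracellular steps of extrinsic apoptosis in the OVCAR8 line, an established ovarian cancer line of human origin. The members are a given list of 10 genes of the 26485 in the deposited annotation, namely TNFRSF10A, TNFRSF10B, TNFRSF10D, TNFRSF1A, TNFRSF12A, TNFRSF21, TNFSF10, FADD, CASP8 and CFLAR. Of these, 9 were among the 14865 genes that passed the filter on low counts, and TNFSF10 was not. Cells were treated for 7 h with vehicle (control group), with 150 nM EC359, an inhibitor of the leukemia inhibitory factor receptor (LIFR), with 100 nM trametinib, an inhibitor of the kinase MEK, or with both agents at those doses (combination group). Polyadenylated RNA was sequenced from 3 libraries in each of the 4 groups. All of the libraries come from this 1 line at 1 time point. The labels do not say whether the 3 libraries of a group came from separate cultures, so the p-values measure only the spread between these libraries, which may be technical.

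Death receptors are members of the tumor necrosis factor (TNF) receptor superfamily whose intracellular death domain recruits adaptors when a ligand binds outside the cell. The ligand TRAIL, made by TNFSF10, binds DR4 (TNFRSF10A) and DR5 (TNFRSF10B), which recruit FADD and then procaspase-8 (CASP8), and active caspase-8 cleaves the executioner caspases and BID. The complex is restrained by c-FLIP, the caspase-8 homolog encoded by CFLAR, and by decoy receptors such as DcR2 (TNFRSF10D), which binds TRAIL but has a truncated death domain.

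The libraries held 24790392 to 32467283 counts. Values are given as CPM, counts scaled by TMM and by the total of each library, and the log2 fold changes come from the edgeR quasi-likelihood fit over all 12 libraries with Benjamini-Hochberg adjustment over the 14865 genes. A gene is said to rise or fall where its adjusted p was under 0.05. Correlations of log2 CPM were 0.991 to 0.993 within groups and 0.958 to 0.987 between groups. The chi-square per gene between the counts of paired libraries was highest, within groups, for the pairs with control library 2. It was 6.73 against control library 1 and 7.50 against control library 3, where control libraries 1 and 3 gave 2.83. Some small calls were lost without control library 2, as given below. Of 9 ovarian epithelial markers, 6 passed the filter and the list summed to 3581 to 4096 CPM, while MUC16 and KRT19 were at or near 0 in every group. Of 4 leukocyte markers 1 passed, with a sum of 0.465 to 1.01 CPM, and PTPRC and CD3E were at 0 in every library. None of the 3 endothelial markers passed, with sums of 0.113 to 0.588 CPM. The summed level of SPRY4, DUSP6 and ETV5, genes induced by MEK and ERK activity, was 106 to 115 CPM in control, 205 to 215 CPM with EC359, 4.80 to 5.51 CPM with trametinib and 10.4 to 10.7 CPM in the combination group.

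With EC359 the 3 TRAIL receptors among the members, TNFRSF10A, TNFRSF10B and TNFRSF10D, rose together, while the adaptor FADD, the initiator CASP8 and the receptor TNFRSF21 fell. With trametinib the 3 TRAIL receptors fell, as did TNFRSF21, while FADD and CASP8 were not called. In the combination group TNFRSF10D was close to its EC359 level, TNFRSF10A and TNFRSF10B lay between the control and the EC359 levels, and FADD, CASP8, TNFRSF21 and TNFRSF1A were each lower than with either agent alone, CASP8 by a small margin. CFLAR had the narrowest range of group means of the 9 members, 0.39 on the log2 scale. In bulk RNA, fewer cells that express a gene and less RNA per cell cannot be told apart.

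Compared to control, EC359 changed 8 of the 9 members tested, where 61.1% of all genes tested were called. Of the members, 4 rose, against 30.8% of all genes, and 4 fell, against 30.3%. At a change of at least 2-fold, 3 members were higher and none lower, against 4.19% and 2.79% of all genes. That split depended on the scaling. With total counts in place of TMM, TNFRSF10A was just under the limit (log2 fold change 0.998). CASP8 was then called lower beyond it (-1.05, adjusted p = 7.07e-18 by edgeR). The 9 members had a median of 0.05 on the log2 scale, beside -0.01 for all genes tested. Trametinib changed 7 of the 9, against 28.2% of all genes. It lowered all 7 and raised none, where 15.2% of all genes fell and 13.0% rose, with a median of -0.43 beside 0.00, and 0 members reached 2-fold, where 1.43% of all genes did. In the combination group all 9 were called, against 69.6% of all genes, 4 higher, against 35.0%, and 5 lower, against 34.7%. At 2-fold, 1 was higher and 4 were lower, against 7.27% and 5.87% of all genes. The median there was -0.34 beside -0.01 for all genes. The libraries of the treated and control groups did not overlap for 8, 7 and 9 of the 9 members with EC359, trametinib and the combination, where 64.7%, 40.1% and 71.8% of all genes tested did not overlap.

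**Figure D1:**
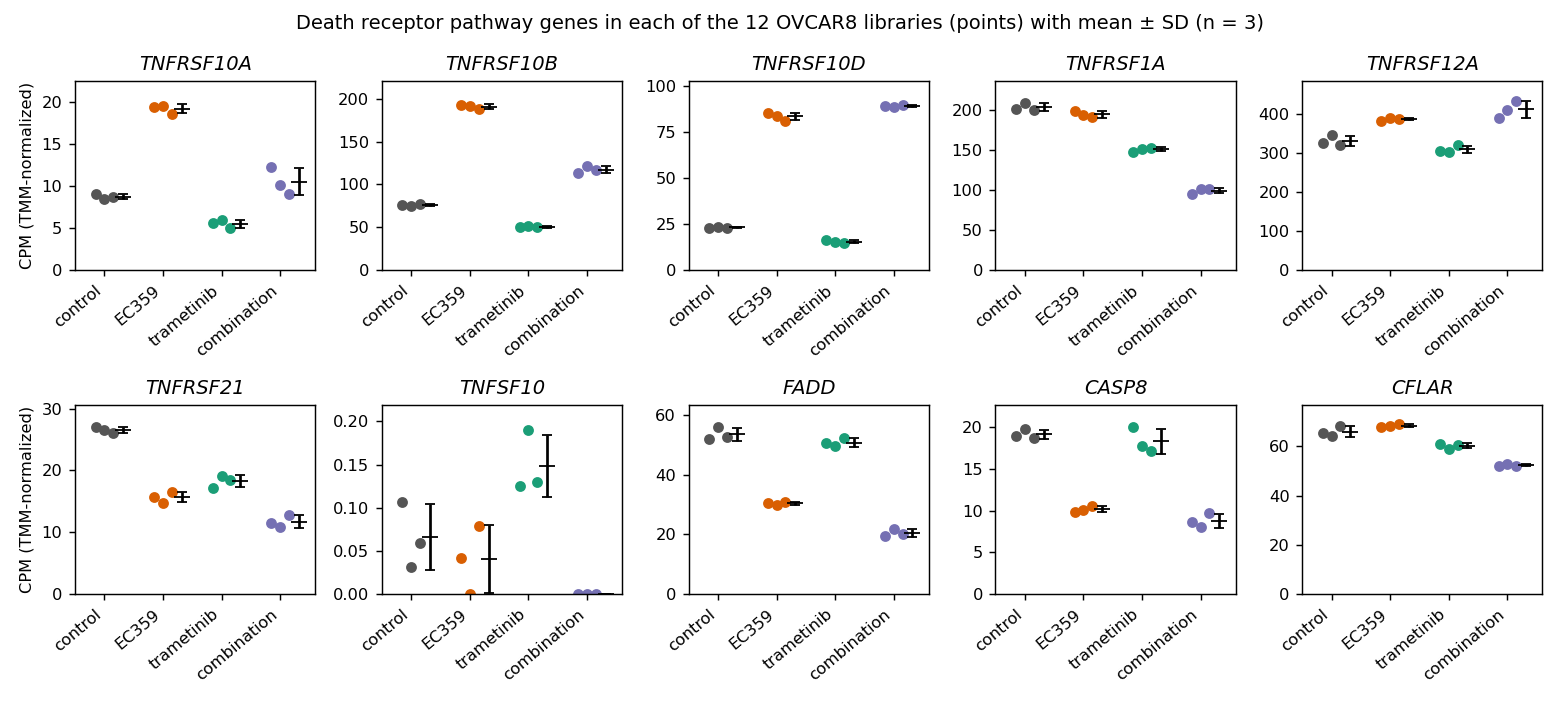
Level of each of the 10 genes in CPM (vertical axes, linear and starting at 0, a separate scale for each gene) in the 12 libraries, by group, with points for libraries and bars for the mean ± SD (n = 3). The 3 TRAIL receptors TNFRSF10A, TNFRSF10B and TNFRSF10D are higher with EC359 than in control, FADD and CASP8 are lower with EC359 and with the combination, and TNFSF10 stays under 0.20 CPM in every library.

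The ligand of the pathway was close to absent. TNFSF10 (chr3:172505508-172523507 in hg38, minus strand) had 3, 1 and 2 counts in the control libraries, 1, 0 and 2 with EC359, 4, 5 and 4 with trametinib, and 0 in all 3 combination libraries. A count of 0 allows a level of up to 0.112 to 0.120 CPM in those libraries, counting error only. The trametinib libraries were the only ones with more than 3 counts. No fold change or test is given for TNFSF10, because it did not pass the filter on low counts.

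TNFRSF10B encodes DR5, a full death receptor for TRAIL, and lies at chr8:23020136-23069187 on the minus strand. Its level was 75.8, 74.5 and 76.8 CPM in the control libraries, 192, 192 and 188 CPM with EC359, 50.7, 52.1 and 50.0 CPM with trametinib, and 113, 121 and 116 CPM in the combination group. The 4 groups did not overlap, and they ranked trametinib, control, combination and EC359 from low to high. The edgeR log2 fold change against control was 1.33 ± 0.03 (SE, adjusted p = 2.83e-41) with EC359, -0.57 ± 0.03 (adjusted p = 1.08e-20) with trametinib and 0.63 ± 0.03 (adjusted p = 4.86e-25) with the combination. The combination was 1.63-fold lower than EC359 alone (adjusted p = 5.47e-28 by edgeR) and 2.30-fold higher than trametinib alone (adjusted p = 4.55e-37).

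TNFRSF10A encodes DR4, the other full death receptor for TRAIL, and lies at chr8:23191457-23225167 on the minus strand. It measured 9.07, 8.49 and 8.68 CPM in control, 19.4, 19.5 and 18.6 CPM with EC359, 5.58, 5.96 and 4.96 CPM with trametinib, and 12.3, 10.2 and 9.09 CPM with the combination. The lowest combination library was only just above the highest control library, and the combination group had the widest spread of any tested member in any group, a coefficient of variation of 15.5%. TNFRSF10A rose with EC359 (log2 fold change 1.13 ± 0.09, SE, adjusted p = 5.02e-17 by edgeR) and fell with trametinib (-0.67 ± 0.10, adjusted p = 9.28e-08). In the combination it was higher than in control by 0.26 ± 0.09 on the log2 scale (adjusted p = 0.00867 by edgeR). That call was lost without combination library 1 (0.14, adjusted p = 0.199) and with total counts as the scaling (0.13, adjusted p = 0.214).

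TNFRSF10D encodes the decoy DcR2 and lies between the other pair, at chr8:23135591-23164030 on the minus strand. It was at 23.2, 23.7 and 23.2 CPM in control, 85.5, 84.0 and 81.4 CPM with EC359, 16.3, 15.5 and 14.9 CPM with trametinib, and 89.6, 88.9 and 89.7 CPM with the combination. Its range over the 4 group means, 2.52 on the log2 scale, was the widest of the 9 members tested. The EC359 and combination libraries stood apart from all of the others, and the 2 groups differed little from each other. TNFRSF10D rose 3.58-fold with EC359 (log2 fold change 1.84 ± 0.04, SE, adjusted p = 2.62e-41 by edgeR) and 3.82-fold with the combination (1.93 ± 0.04, adjusted p = 1.18e-42), and it fell by 0.59 ± 0.05 on the log2 scale with trametinib (adjusted p = 4.64e-14). Combination against EC359, the difference was 0.10 ± 0.04 (adjusted p = 0.0248 by edgeR). DESeq2 did not call that difference (0.09, adjusted p = 0.0772), and edgeR did not without EC359 library 2 (0.10, adjusted p = 0.0530), EC359 library 3 (0.08, adjusted p = 0.134), combination library 1 (0.09, adjusted p = 0.0593) or combination library 3 (0.09, adjusted p = 0.0655), nor with no filter on low counts (0.09, adjusted p = 0.0514).

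TNFRSF10A, TNFRSF10B and TNFRSF10D are paralogs in 1 gene cluster, with TNFRSF10C, and reads that match more than 1 of them were counted as fractions, so a small part of a level may belong to a neighbor. The balance within the family was compared in each library. Per kilobase of exon, TNFRSF10B stood to TNFRSF10D at 2.79, 2.68 and 2.81 in control and at 2.65, 2.87 and 2.86 with trametinib. With EC359 that ratio was 1.92, 1.95 and 1.96, and with the combination it was 1.08, 1.16 and 1.11. On the log2 scale the ratio differed from control by -0.51 ± 0.02 (SE) with EC359 and by -1.31 ± 0.04 with the combination, with no overlap of the libraries and a 2-sided exact permutation p of 0.1 in each. The value of 0.1 is the smallest that 3 against 3 libraries can give, so this design cannot reach 0.05 for a single ratio. With trametinib the ratio differed by 0.02 ± 0.04 and the groups overlapped (2-sided exact permutation p = 0.6). The ratio of TNFRSF10B to TNFRSF10A had geometric means of 3.65 in control, 4.20 with EC359 and 4.72 with the combination, again without overlap (exact permutation p = 0.1 each, 2-sided).

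TNFRSF1A encodes TNFR1, the main receptor for TNF, which signals to NF-kappaB through TRADD and RIPK1 and can recruit FADD and caspase-8 in a later complex. It lies at chr12:6328757-6342117 on the minus strand. Its level was 200.1, 208 and 199.6 CPM in control, 198, 193 and 190.4 CPM with EC359, 148, 151 and 153 CPM with trametinib, and 95.2, 101 and 101 CPM with the combination. Control and EC359 libraries lay close together, trametinib libraries were lower, and combination libraries were lowest. TNFRSF1A fell by 0.43 ± 0.03 (SE) on the log2 scale with trametinib (adjusted p = 2.21e-19 by edgeR) and was 2.05-fold lower in the combination group (log2 fold change -1.03 ± 0.03, adjusted p = 8.6e-37). With EC359 the change was -0.06 ± 0.03 (adjusted p = 0.0400 by edgeR). That small difference was not called by DESeq2 (-0.06, adjusted p = 0.106), with DESeq2 size factors in edgeR (-0.06, adjusted p = 0.0634) or with no filter on low counts (-0.06, adjusted p = 0.0552). Nor was it called without control library 1 (-0.07, adjusted p = 0.0521), control library 2 (-0.04, adjusted p = 0.241), EC359 library 2 (-0.06, adjusted p = 0.117) or EC359 library 3 (-0.05, adjusted p = 0.175). With total counts as the scaling it was -0.20 (adjusted p = 8.45e-09), where the median of all genes was -0.15.

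TNFRSF12A encodes Fn14, the receptor for TWEAK, which has no death domain and signals through TRAF proteins. It lies at chr16:3020312-3022382 on the plus strand and was the most abundant member per length in every group. Its level was 325, 346 and 321 CPM in control, 382, 388 and 385 CPM with EC359, 306, 302 and 319 CPM with trametinib, and 389, 411 and 433 CPM with the combination. The 2 groups that received EC359 lay above the 2 that did not. TNFRSF12A rose by 0.22 ± 0.03 on the log2 scale (SE) with EC359 (adjusted p = 4.51e-06 by edgeR) and by 0.31 ± 0.03 with the combination (adjusted p = 1.69e-08), and with total counts as the scaling by 0.09 and 0.17. With trametinib it was -0.10 ± 0.03 (adjusted p = 0.0332 by edgeR). The trametinib call was lost with total counts (-0.07, adjusted p = 0.0845) and without any 1 of control library 2, trametinib library 1 or 2, the 3 EC359 libraries in turn, or combination library 2, where the value ran from -0.06 to -0.10 and the adjusted p from 0.0516 to 0.154. Combination against EC359, it was 0.09 ± 0.03 higher (adjusted p = 0.0239 by edgeR), a call that was lost without any 1 of the EC359 libraries or without combination library 2 or 3 (0.05 to 0.09, adjusted p from 0.0682 to 0.166).

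TNFRSF21 encodes DR6, a death domain receptor that binds a fragment of the amyloid precursor protein, and lies at chr6:47231527-47309947 on the minus strand. It measured 27.0, 26.6 and 26.0 CPM in control, 15.7, 14.8 and 16.5 CPM with EC359, 17.2, 19.1 and 18.5 CPM with trametinib, and 11.4, 10.9 and 12.8 CPM with the combination. Every treated library was below every control library, and the combination libraries were the lowest. TNFRSF21 fell by 0.76 ± 0.07 (SE) on the log2 scale with EC359 (adjusted p = 2.77e-15 by edgeR), by 0.54 ± 0.06 with trametinib (adjusted p = 5.17e-10) and by 1.18 ± 0.07 with the combination (adjusted p = 1.43e-22). Among the 6 member receptors, TNFRSF21 alone was lower than control with EC359 by more than 1.5-fold.

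FADD encodes the adaptor that joins the receptor death domain to caspase-8, and lies at chr11:70203163-70207402 on the plus strand. Its level was 52.0, 55.8 and 52.5 CPM in control, 30.4, 29.8 and 30.8 CPM with EC359, 50.4, 49.4 and 52.2 CPM with trametinib, and 19.4, 21.8 and 20.02 CPM with the combination. Control and trametinib libraries overlapped within a narrow range, EC359 libraries were lower, and combination libraries were lower still. FADD fell 1.76-fold with EC359 (log2 fold change -0.82 ± 0.05, SE, adjusted p = 2.27e-22 by edgeR) and 2.62-fold with the combination (-1.39 ± 0.05, adjusted p = 4.96e-32), the largest decrease of any member. With trametinib the change was -0.08 and its 95% interval ran from -0.16 to 0.01 (adjusted p = 0.208 by edgeR). Combination against EC359, FADD was lower by -0.57 ± 0.05 (adjusted p = 1.49e-13 by edgeR).

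CASP8 encodes the initiator caspase of the complex, and lies at chr2:201233443-201287711 on the plus strand. It measured 19.0, 19.8 and 18.8 CPM in control, 9.88, 10.1 and 10.6 CPM with EC359, 20.1, 17.7 and 17.2 CPM with trametinib, and 8.66, 8.05 and 9.69 CPM with the combination. The 6 libraries that received EC359 were all below 11 CPM and the other 6 all above 17 CPM. CASP8 fell 1.88-fold with EC359 (log2 fold change -0.91 ± 0.08, SE, adjusted p = 1.14e-15 by edgeR) and 2.18-fold with the combination (-1.12 ± 0.08, adjusted p = 3.74e-19). With trametinib the change was -0.06, with a 95% interval from -0.21 to 0.08 (adjusted p = 0.561 by edgeR). Combination against EC359, the difference was -0.21 ± 0.08 (adjusted p = 0.0306 by edgeR). DESeq2 (-0.22, adjusted p = 0.0788) and a fit of only those groups (-0.21, adjusted p = 0.0659) did not call it, nor did edgeR without EC359 library 2 (-0.22, adjusted p = 0.0550), EC359 library 3 (-0.19, adjusted p = 0.0968), combination library 1 (-0.20, adjusted p = 0.0699) or combination library 2 (-0.15, adjusted p = 0.178).

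CFLAR encodes c-FLIP, which occupies FADD in place of caspase-8, and lies at chr2:201116104-201172688 on the plus strand, upstream of CASP8 with CASP10 in between. The counts are per gene and do not separate the long and short c-FLIP isoforms. Its level was 65.6, 64.2 and 68.3 CPM in control, 67.8, 68.2 and 69.1 CPM with EC359, 61.0, 59.0 and 60.7 CPM with trametinib, and 52.0, 52.7 and 52.1 CPM with the combination. EC359 and control libraries overlapped, with a log2 fold change of 0.05 and a 95% interval from -0.02 to 0.12 (adjusted p = 0.248 by edgeR), and total counts as the scaling turned that value to -0.09 (adjusted p = 0.0373). CFLAR fell by 0.13 ± 0.04 (SE) on the log2 scale with trametinib (adjusted p = 0.00348 by edgeR) and by 0.34 ± 0.04 with the combination (adjusted p = 1.12e-11).

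The ratio of CFLAR to CASP8 within each library describes the same counts as those fits and is given without a test. Per kilobase of exon it was 0.792, 0.742 and 0.833 in control and 0.696, 0.761 and 0.808 with trametinib. With EC359 it was 1.57, 1.54 and 1.497, and with the combination 1.37, 1.498 and 1.23. The log2 ratio differed from control by 0.96 ± 0.05 (SE) with EC359, by 0.79 ± 0.10 with the combination and by -0.06 ± 0.08 with trametinib alone, and trametinib was the group whose libraries overlapped with control. The annotated exon length of CFLAR, 15921 bp, is the longest of the members, so the ratio itself depends on that length, while its change between groups does not.

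**Figure D2:**
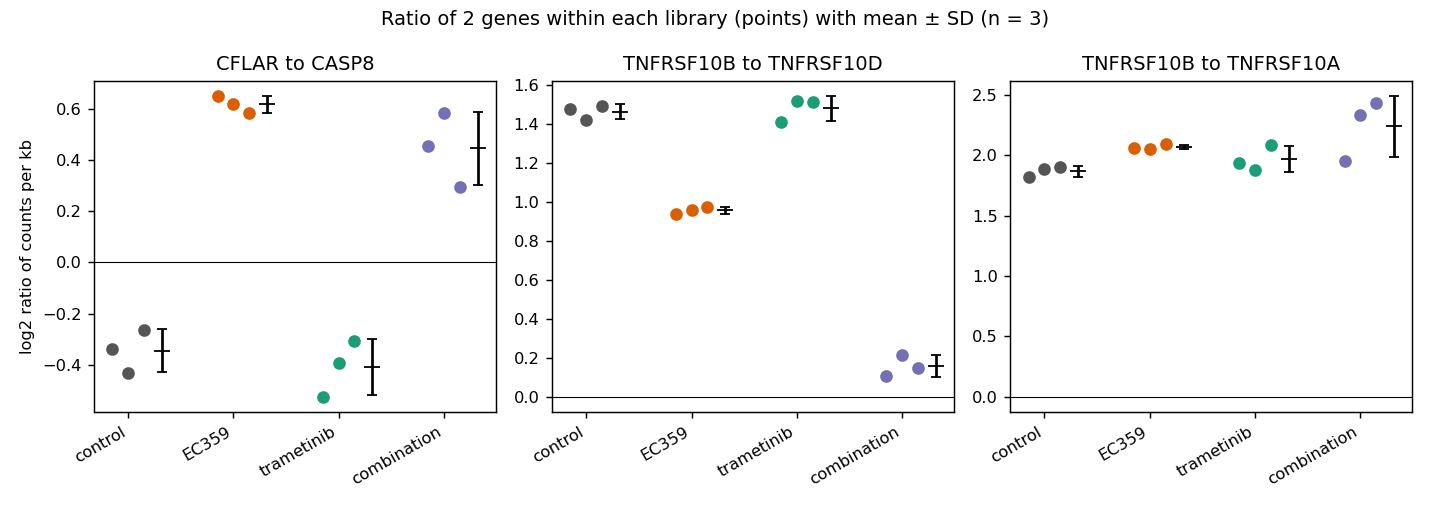
Log2 ratio of CFLAR to CASP8, TNFRSF10B to TNFRSF10D and TNFRSF10B to TNFRSF10A per kilobase of exon (vertical axes, a separate scale for each panel) within each of the 12 libraries, by group, with points for libraries and bars for the mean ± SD (n = 3). The CFLAR to CASP8 ratio is below 0 in all control and trametinib libraries and above 0 in all EC359 and combination libraries, and the TNFRSF10B to TNFRSF10D ratio is lowest in the combination group.

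Of the 10 members, 6 were found in the RefSeq promoter table. The sequences shown are those before the first annotated exon of the 4 members that were at least 2-fold lower in the combination group, so that the upstream DNA of genes that fell together can be read side by side. They come from RefSeq on GRCh38.p14, 5′ to 3′ on the strand of the gene, and end at the base before the first exon of the annotation the authors counted on. The RefSeq start of each of the 4 genes lies inside that exon, so each window stops short of the RefSeq start. Capitals mark matches, on either strand, to any of 7 motifs searched, the SP1 box GGGCGG, the E-box CACGTG, the AP-1 site TGANTCA, the ETS core CCGGAA, the cAMP response element TGACGTCA, the NF-kappaB core GGGANTTTC and the CHOP and ATF4 composite site TGATGCAA.
FADD, chr11:70203046-70203162, plus strand: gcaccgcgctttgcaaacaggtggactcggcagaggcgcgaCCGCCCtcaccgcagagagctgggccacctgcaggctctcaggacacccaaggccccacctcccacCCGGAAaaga
CASP8, chr2:201233213-201233442, plus strand: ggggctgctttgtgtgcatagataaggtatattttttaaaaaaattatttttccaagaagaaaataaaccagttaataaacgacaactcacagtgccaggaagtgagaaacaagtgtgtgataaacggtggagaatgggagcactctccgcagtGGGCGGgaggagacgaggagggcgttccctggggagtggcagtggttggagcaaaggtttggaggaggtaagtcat
TNFRSF21, chr6:47309948-47310155, minus strand: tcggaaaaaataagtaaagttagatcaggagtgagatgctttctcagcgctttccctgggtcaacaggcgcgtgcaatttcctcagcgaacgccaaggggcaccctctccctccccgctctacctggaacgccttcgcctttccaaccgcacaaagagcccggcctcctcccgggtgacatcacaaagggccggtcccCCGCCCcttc
TNFRSF1A, chr12:6342118-6342326, minus strand: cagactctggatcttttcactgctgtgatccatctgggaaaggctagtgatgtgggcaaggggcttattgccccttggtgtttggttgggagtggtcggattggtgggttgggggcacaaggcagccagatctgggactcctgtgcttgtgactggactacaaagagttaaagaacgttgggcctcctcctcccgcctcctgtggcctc

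The SP1 box was found once each in the FADD, CASP8 and TNFRSF21 windows, and the ETS core once in the FADD window, with no overlap between motifs. In windows of the same length, counted from 250 bases before the RefSeq start, over all 35116 RefSeq promoters, the SP1 box was present in 20.2% at 117 bases, the length for FADD, in 39.96% at 230 bases, the length for CASP8, and in 36.7% at 208 bases, the length for TNFRSF21. The ETS core was present in 4.99% of windows of 117 bases. None of the 7 motifs was found in the 209 bases shown for TNFRSF1A. The GC content of the windows was 67.5% for FADD, 46.1% for CASP8, 59.1% for TNFRSF21 and 56.0% for TNFRSF1A. These matches are letters in a window and were not tested as sites.

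**Figure D3:**
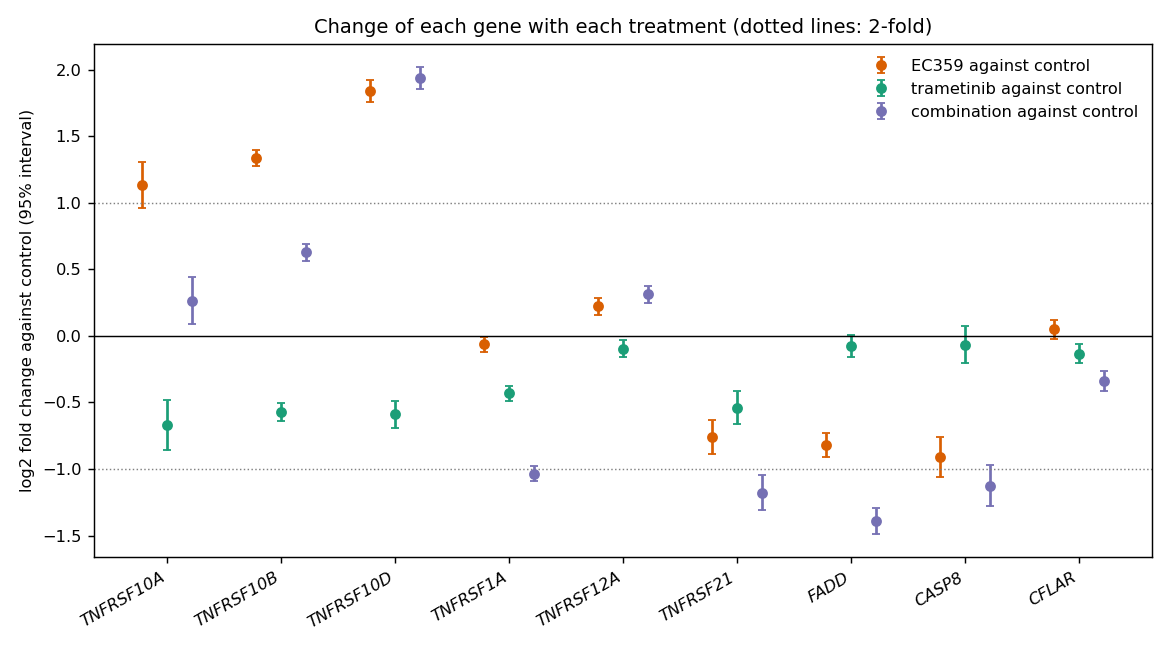
Log2 fold change against control (vertical axis) of the 9 members tested, with EC359, trametinib and the combination, from the edgeR fit, with bars for the 95% interval and dotted lines at 2-fold. The 3 TRAIL receptors are above the upper dotted line with EC359, and FADD, CASP8, TNFRSF21 and TNFRSF1A are below the lower dotted line with the combination.

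Whether the combination equalled the sum of its parts was tested as the interaction term of the same fit, which is the log2 fold change of the combination minus those of EC359 and trametinib. It was called for 6 of the 9 members, against 30.3% of all genes, with 2 above the sum, against 14.4%, and 4 below it, against 15.9%. TNFRSF10D was above the sum, with a combination value of 1.93 against a sum of 1.25 (interaction 0.68 ± 0.06, SE, adjusted p = 7.29e-13 by edgeR), and TNFRSF12A was above it by 0.19 ± 0.05 (adjusted p = 0.00359). Below the sum were TNFRSF1A, at -1.03 against -0.50 (interaction -0.54 ± 0.04, adjusted p = 5.73e-16 by edgeR), and FADD, at -1.39 against -0.89 (-0.50 ± 0.07, adjusted p = 7.36e-08). CFLAR was below it by -0.25 ± 0.05 (adjusted p = 0.000128 by edgeR). TNFRSF10B was below it by a smaller -0.13 ± 0.05 (adjusted p = 0.0232 by edgeR), a call lost without control library 2 (-0.12, adjusted p = 0.0623), trametinib library 2 (-0.12, adjusted p = 0.0712) or combination library 1 (-0.11, adjusted p = 0.0751). The interaction of TNFRSF10A was -0.20 with a 95% interval from -0.45 to 0.06, that of TNFRSF21 was 0.12 with an interval from -0.07 to 0.31, and that of CASP8 was -0.15 with an interval from -0.36 to 0.07, and none of these was called (adjusted p = 0.267, 0.365 and 0.335 by edgeR).

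**Figure D4:**
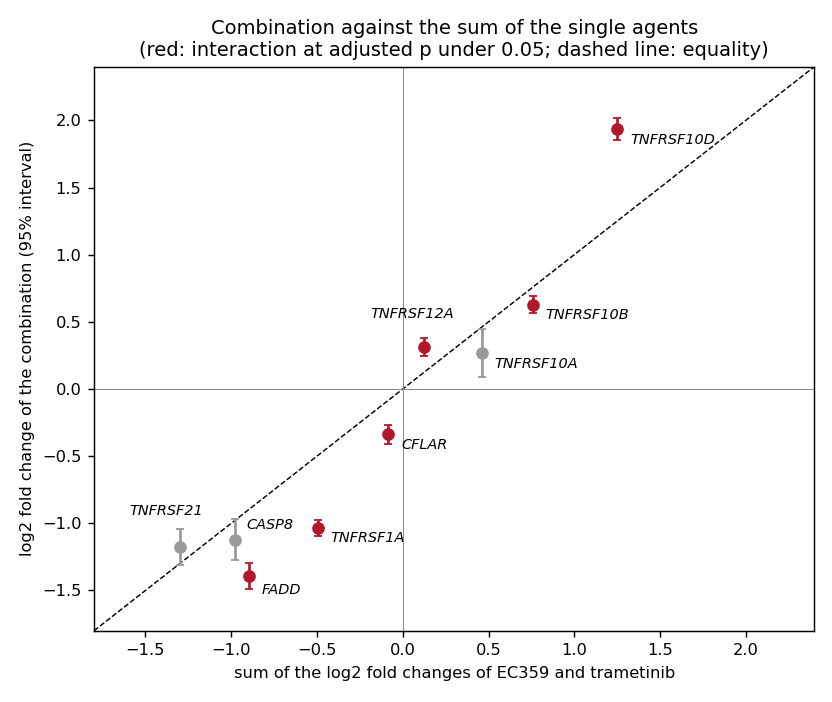
Log2 fold change of the combination against control (vertical axis, with the 95% interval) against the sum of the log2 fold changes of EC359 and trametinib alone (horizontal axis) for the 9 members tested, with the dashed line at equality and red for an interaction at an adjusted p under 0.05. TNFRSF10D lies above the line, at 1.93 against 1.25, and TNFRSF1A and FADD lie below it.

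Combination against EC359, all 9 members were called, against 49.2% of all genes, 7 lower, against 25.2%, and 2 higher, against 24.1%, and 0 members reached 2-fold, against 3.24%. The libraries of the 2 groups did not overlap for any of the 9, against 53.7% of all genes. TNFRSF1A differed most, 1.96-fold lower than with EC359 alone (log2 fold change -0.97 ± 0.03, SE, adjusted p = 2.48e-34 by edgeR), followed by TNFRSF10A at 1.82-fold lower (-0.87 ± 0.09, adjusted p = 1.54e-12). Combination against trametinib, all 9 were called without overlap, where 68.2% of all genes were called and 70.3% did not overlap, with 4 higher, against 35.3%, and 5 lower, against 32.9%. At 2-fold, TNFRSF10D (5.75-fold) and TNFRSF10B (2.30-fold) were higher, against 6.12% of all genes, and FADD (2.49-fold) and CASP8 (2.08-fold) were lower, against 5.48%. EC359 against trametinib, all 9 were called without overlap, where 62.8% of all genes were called and 66.3% did not overlap, with 6 higher, against 31.6%, and 3 lower, against 31.2%. At 2-fold, TNFRSF10D, TNFRSF10B and TNFRSF10A were 5.38-fold, 3.75-fold and 3.49-fold higher with EC359, against 4.70% of all genes, and none was lower, against 3.40%. With total counts as the scaling CASP8 was just beyond 2-fold lower (-1.005, adjusted p = 3.71e-17 by edgeR). CFLAR was among the 6 that were higher, at 0.18, and that call was lost with total counts as the scaling (0.02, adjusted p = 0.596 by edgeR). These comparisons share groups with those against control and are not independent of them.

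Per kilobase of exon, TNFRSF12A (320.3 ± 13.1 CPM per kb, SD, n = 3) and TNFRSF1A (91.1 ± 2.22) were the highest members in control, followed by FADD (28.8 ± 1.11), TNFRSF10B (18.2 ± 0.279), TNFRSF21 (7.28 ± 0.139), TNFRSF10D (6.61 ± 0.0829), CASP8 (5.27 ± 0.152), TNFRSF10A (4.998 ± 0.167) and CFLAR (4.15 ± 0.130). Only the neighbors CASP8 and TNFRSF10A overlapped between libraries in that order. With EC359, TNFRSF10B (45.9 ± 0.626 CPM per kb) and TNFRSF10D (23.7 ± 0.583) stood above FADD (16.4 ± 0.264), and CASP8 (2.80 ± 0.0935) was the lowest of the tested members, while TNFRSF21 and CFLAR overlapped. With trametinib the order was that of control at the top, TNFRSF10A (3.14 ± 0.288) was the lowest tested member, and CASP8 and TNFRSF21 overlapped. In the combination group TNFRSF10B (28.2 ± 0.986 CPM per kb) and TNFRSF10D (25.3 ± 0.118) ranked next after TNFRSF1A, FADD (10.996 ± 0.668) followed, CASP8 (2.42 ± 0.229) was again the lowest tested member, and CFLAR overlapped with TNFRSF21.

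The other genes of the pathway were taken from 5 lists with 69 genes, of which 58 passed the filter. With EC359, 28 of the 58 rose and 14 fell, and their median was 0.07 on the log2 scale. With trametinib 9 rose and 14 fell (median -0.03), and with the combination 27 rose and 24 fell (median -0.01). With total counts as the scaling those splits were 27 and 23, 12 and 12, and 21 and 28. The shares called, 42, 23 and 51 of 58, stand beside the 61.1%, 28.2% and 69.6% of all genes given above. By direction, 30.8% of all genes rose and 30.3% fell with EC359, 13.0% and 15.2% with trametinib, and 35.0% and 34.7% with the combination. All 5 lists were chosen with earlier results of these data known.

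Of 8 other death ligands, 6 had too few counts to test. FASLG, LTA, LTB, TNFSF15 and TNFSF18 had 0 counts in every library, and TNF, the ligand of TNFRSF1A, had 0 to 12.4. The mean of TNF was 0.020 ± 0.018 CPM (SD, n = 3) in control and 0.083 ± 0.062 CPM with trametinib. It was 0.346 ± 0.155 CPM with EC359 and 0.354 ± 0.107 CPM with the combination, and the difference was not tested. The 2 ligand genes tested were TNFSF12, which makes TWEAK, and APP, the amyloid precursor protein. With EC359 1 of them rose and none fell, against 30.8% and 30.3% of all genes. With the combination 1 rose and 1 fell, against 35.0% and 34.7%. Neither was called with trametinib, and neither changed by 1.5-fold.

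Of 10 other receptors, 6 were tested. With EC359 2 rose and 1 fell, against 30.8% and 30.3% of all genes. With trametinib 2 fell, against 15.2%, and with the combination 2 rose and 3 fell, against 35.0% and 34.7%. With total counts as the scaling the splits were 2 and 2, 0 and 2, and 1 and 3. TNFRSF6B, the soluble decoy DcR3 that binds FASLG, was 158 ± 1.25 CPM (SD, n = 3) in control, 58.0 ± 3.17 CPM with trametinib (log2 fold change -1.45 ± 0.04, SE, adjusted p = 2.62e-35 by edgeR) and 71.8 ± 2.90 CPM with the combination (-1.14 ± 0.04, adjusted p = 4.42e-32). TNFRSF10C, the decoy DcR1 in the TRAIL receptor cluster, was low at 1.87 ± 0.648 CPM in control and fell to 1.13 ± 0.0821 CPM with the combination (-0.71 ± 0.25, adjusted p = 0.0107 by edgeR), a call lost without control library 1 (-0.46, adjusted p = 0.126). With EC359 its value was -0.28 (adjusted p = 0.328 by edgeR), and -0.65 without EC359 library 2 (adjusted p = 0.0341).

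Of the 22 tested adaptors and complex members, 11 rose and 3 fell with EC359, against 30.8% and 30.3% of all genes. With trametinib 3 rose and 5 fell, against 13.0% and 15.2%. With the combination 10 rose and 8 fell, against 35.0% and 34.7%. With total counts as the scaling the splits were 11 and 9, 5 and 4, and 5 and 10. TNFAIP3, which encodes A20, an inhibitor of NF-kappaB signaling and a target of it, was 14.2 ± 0.561 CPM (SD, n = 3) in control, 150.5 ± 5.28 CPM with EC359 (log2 fold change 3.40 ± 0.04, SE, adjusted p = 1.68e-54 by edgeR) and 97.7 ± 0.825 CPM with the combination (2.78 ± 0.04, adjusted p = 2.36e-49). BIRC3, which encodes the ubiquitin ligase cIAP2, rose from 14.2 ± 1.14 to 39.6 ± 0.624 CPM with EC359 (1.48 ± 0.07, adjusted p = 4.93e-27 by edgeR) and was 11.9 ± 1.04 CPM with the combination (-0.26 ± 0.07, adjusted p = 0.00194, and -0.40 with total counts). With trametinib BIRC3 fell, with a log2 fold change of -0.78 (adjusted p = 1.49e-12 by edgeR). TRAF1, a TRAF family adaptor, rose from 3.94 ± 0.864 to 12.6 ± 1.52 CPM with EC359 (1.67 ± 0.13, adjusted p = 5.55e-15 by edgeR). DEDD2, a death effector domain protein, rose from 34.4 ± 0.170 CPM to 114 ± 4.30 CPM with EC359 and 165 ± 3.36 CPM with the combination (1.73 ± 0.04 and 2.26 ± 0.04, adjusted p = 3.55e-42 and 1.08e-48 by edgeR). CYLD, a deubiquitinase of the receptor complexes, rose with each treatment, to 117 ± 2.71 CPM with the combination from 53.6 ± 1.55 CPM (1.13 ± 0.04, adjusted p = 8.93e-35 by edgeR). MLKL, the executor of necroptosis, fell with trametinib (log2 fold change -0.56, adjusted p = 0.000178 by edgeR). It fell from 7.22 ± 0.110 to 2.88 ± 0.450 CPM with the combination (-1.32 ± 0.13, adjusted p = 1.16e-13 by edgeR). MAP3K7, which encodes the kinase TAK1, fell from 69.1 ± 2.27 to 44.0 ± 0.635 CPM with the combination (-0.65 ± 0.04, adjusted p = 1.59e-21 by edgeR). RIPK3, the kinase upstream of MLKL, had 0 counts in every library.

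Of the 16 effectors downstream, 4 rose and 8 fell with EC359, against 30.8% and 30.3% of all genes. With trametinib 2 rose and 5 fell, against 13.0% and 15.2%. With the combination 4 rose and 10 fell, against 35.0% and 34.7%. With total counts as the scaling the EC359 split was 3 and 10. DFFB, which encodes the caspase-activated DNase, was the only one to change by at least 1.5-fold in any treatment, with 5.88 ± 0.287 CPM (SD, n = 3) in control, 3.43 ± 0.246 CPM with EC359 and 2.22 ± 0.185 CPM with the combination (log2 fold change -0.78 ± 0.13 and -1.40 ± 0.14, SE, adjusted p = 1.41e-06 and 4.5e-13 by edgeR).

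Of the 12 factors known to regulate these genes, 10 rose and 2 fell both with EC359 and with the combination. Their medians were 0.84 and 0.61. Among all genes 30.8% rose and 30.3% fell with EC359, and 35.0% and 34.7% with the combination. With trametinib 4 rose and 2 fell, against 13.0% and 15.2%, a split that was 4 and 1 with total counts as the scaling. The list was chosen with earlier results of these data known. ATF4 and DDIT3 (CHOP) are stress transcription factors known to act on TNFRSF10B. Whether they acted on it in these cells was not tested. ATF4 went from 341 ± 5.75 CPM (SD, n = 3) to 655 ± 26.5 CPM with EC359 and 694 ± 12.01 CPM with the combination (log2 fold change 0.94 ± 0.03 and 1.03 ± 0.03, SE, adjusted p = 9.48e-37 and 1.39e-38 by edgeR). DDIT3 rose with each agent, from 9.58 ± 0.422 CPM to 16.5 ± 1.001 CPM with EC359, 13.3 ± 0.487 CPM with trametinib, where TNFRSF10B fell, and 16.9 ± 0.842 CPM with the combination (0.78, 0.47 and 0.82, adjusted p = 1.68e-13, 1.19e-06 and 1.99e-14 by edgeR). ATF3, a factor of the same stress response, rose by 4.70 with EC359, by 1.29 with trametinib and by 5.79 with the combination on the log2 scale. TRIB3, an ATF4 and CHOP target, rose by 1.07 with EC359 and by 0.50 with the combination. The NF-kappaB subunits RELA and NFKB1 rose by 0.73 and 0.90 with EC359 and by 0.58 and 0.65 with the combination. FOXO3, a factor for apoptosis genes, rose by 1.59 and 1.82, and IRF1, an interferon-response factor, by 1.24 and 1.36. MYC rose by 0.75 with EC359 (adjusted p = 8.77e-28 by edgeR), fell by 0.52 with trametinib (adjusted p = 3.14e-19) and rose by 0.43 with the combination (adjusted p = 7.59e-18).

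**Figure D5:**
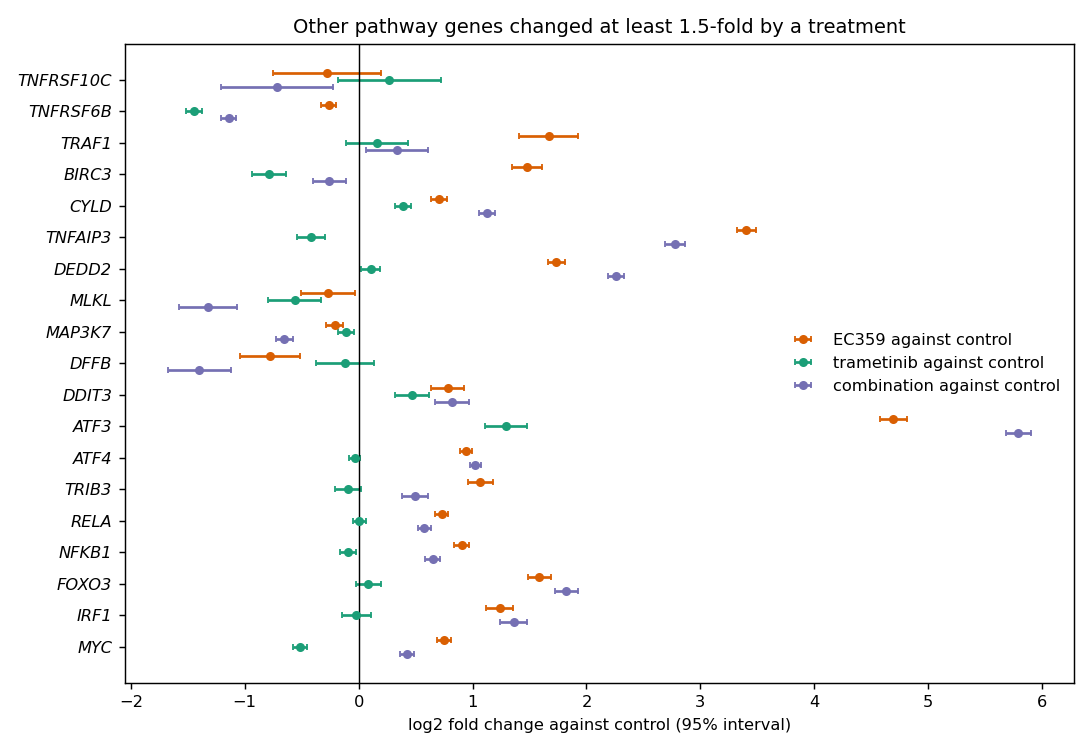
Log2 fold change against control (horizontal axis, with the 95% interval) of the 19 other pathway genes that changed by at least 1.5-fold in a treatment, with EC359, trametinib and the combination, from the edgeR fit. ATF3 and TNFAIP3 rise most with EC359 and with the combination, and TNFRSF6B is lowest with trametinib.

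Of the 7 other tested genes within 100 kb of TNFRSF10A, TNFRSF10B or TNFRSF10D, 1 rose and 3 fell with EC359. Of all genes tested, 30.8% rose and 30.3% fell with EC359. With trametinib 0 rose and 3 fell, against 13.0% and 15.2% of all genes. With the combination all 7 fell, against 34.7% of all genes, and the call of TNFRSF10C was lost without control library 1. CHMP7 fell by 0.21 with EC359 and by 0.64 with the combination on the log2 scale, R3HCC1 fell by 0.41 and 0.59, and RHOBTB2, which overlaps TNFRSF10B on the opposite strand, fell by 0.72 and 1.23. LOXL2, beyond TNFRSF10A, was 0.08 with EC359 (adjusted p = 0.00995 by edgeR), -0.46 with trametinib and -0.38 with the combination. The counting used strand, so reads of RHOBTB2 and TNFRSF10B were kept apart. Between CFLAR and CASP8, CASP10, the caspase-8 paralog, was at 4.13 ± 0.549 CPM (SD, n = 3) in control, with log2 fold changes of -0.17 with EC359, 0.36 with trametinib and -0.03 in the combination group (adjusted p = 0.315, 0.0416 and 0.879 by edgeR). LTBR, the lymphotoxin receptor gene near TNFRSF1A, was 0.05 with EC359 (adjusted p = 0.154 by edgeR), -0.35 with trametinib and -0.50 with the combination.

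Across the 12 libraries the log2 CPM of the members followed each other in part, which is a description, since the libraries share the same 4 treatments. TNFRSF10A and TNFRSF10B had a Pearson r of 0.97, FADD and CASP8 0.96, and TNFRSF1A and CFLAR 0.97, while TNFRSF10D and CASP8 had -0.95. Among 9396 genes with a mean of at least 10 CPM, those most like TNFRSF10D were BOD1 (r = 0.998), MAP3K9 (0.997) and IER5 (0.996). Among the genes most like TNFRSF10B were FOSL2 (0.997) and SRC (0.995), and among those most like TNFRSF10A were ITPRIP (0.989) and ITGB1 (0.989). Their sizes of change differed, with a log2 fold change of 0.35 for BOD1 and 1.61 for ITPRIP with EC359.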

How the data were processed

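RNA-seq libraries (polyadenylated RNA, stranded, paired-end reads of 100 bases) were made from OVCAR8 cells. The deposited files hold estimated counts per gene: per the file headers, the authors counted read pairs with featureCounts 1.5.0-p1 over the exons of an hg38 annotation, using strand and sharing reads that match several places or genes as fractions, and 12.4% to 15.1% of genes per library had a count that was not whole. The submitters' processing notes also name HISAT2 and bcl2fastq without a version. Multi-mapped reads counted as fractions can move small parts of a level between the TRAIL receptor paralogs. Counts were rounded to whole numbers and scaled by TMM (edgeR 4.0.16, R 4.3.3), and genes were filtered with filterByExpr (minimum count 10, minimum total 15), leaving 14865 of 26485 genes. All 12 libraries entered 1 quasi-likelihood fit with group as the only term, and p-values were adjusted by Benjamini-Hochberg over all genes tested. The SE is the absolute log2 fold change over the square root of F. Total counts per library were 24790392 to 32467283 and the common biological coefficient of variation was 3.95%. Ratios between TRAIL receptors were compared by 2-sided exact permutation tests. The fit was tested on simulated data. The members and lists were chosen with earlier results of these data known. All 10 members were named, and the other pathway genes were named where the adjusted p was under 0.05 with at least a 1.5-fold change in any treatment against control, apart from genes named for a low count, for position or as likest in pattern by rule, and CASP10. TNFRSF10B and CFLAR overlap other genes on the opposite strand. Alternatives were DESeq2 1.42.0, DESeq2 size factors or total counts in edgeR, no filter or at least 10 counts in every library, a replicate block, unrounded counts, only the groups compared, a test against 1.5-fold, and each library left out. Intervals are 95% and the floor for a count of 0 is 3 counts. Some genes that the rule on likeness would name are not reported here.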

Additional observations from a re-analysis of the deposited data

Results flagged for a closer look

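The effect of EC359 in the presence of trametinib differed from its effect in vehicle in 6 members and in 14 of the 19 other named pathway genes. This is by the interaction term of the edgeR fit with Benjamini-Hochberg adjustment, which was called for 30.3% of all genes tested. The 19 were named for a change of at least 1.5-fold in a treatment, so they were picked for large effects. Of all 58 tested genes of the pathway lists, 7 were above the sum and 24 below it, against 14.4% and 15.9% of all genes. Those lists were chosen with earlier results of these data known. Among the receptors the interaction was 0.68 for TNFRSF10D, 0.19 for TNFRSF12A, -0.13 for TNFRSF10B and -0.54 for TNFRSF1A on the log2 scale, and 0.57 for the decoy TNFRSF6B. For the adaptor FADD it was -0.50 and for the inhibitor CFLAR it was -0.25. Of the 20 named genes with a called interaction, 14 had negative values, with the largest for TRAF1 at -1.49 and BIRC3 at -0.95. The rise of TRAF1 and BIRC3 with EC359 alone was thus smaller with trametinib present.

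MAP3K7 was at -0.33, DDIT3 at -0.43, TRIB3 at -0.48, RELA at -0.16 and NFKB1 at -0.16, and on the positive side DEDD2 was at 0.42 and MYC at 0.19. Besides that of TNFRSF10B, described above, the interactions of 4 genes were lost in some refits. TNFAIP3, at -0.21, was not called without control library 1 (-0.19, adjusted p = 0.0602 by edgeR) or trametinib library 1 (-0.19, adjusted p = 0.0652). ATF4, at 0.12, was not called without EC359 library 3 (0.09, adjusted p = 0.0645 by edgeR) or trametinib library 1 (0.10, adjusted p = 0.0533), or with total counts as the scaling (0.09, adjusted p = 0.0556). MLKL, at -0.49, was not called by DESeq2 (-0.50, adjusted p = 0.0583) or without control library 2, EC359 library 3, trametinib library 3 or combination library 3 (-0.37 to -0.48, adjusted p from 0.0528 to 0.130 by edgeR). DFFB, at -0.50, was not called by DESeq2 (-0.51, adjusted p = 0.0873) with no filter on low counts (-0.51, adjusted p = 0.0685), with a replicate block (-0.50, adjusted p = 0.0511), or without any 1 of the 3 control libraries, EC359 library 1 or 2, trametinib library 1 or 3, or combination library 1 or 2 (-0.44 to -0.53, adjusted p from 0.0527 to 0.0964 by edgeR).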

How the results depend on the processing

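Over all alternatives, the number of members called kept within 1.5 times its value in each of the 7 comparisons. Leaving out 1 library gave 7 to 8 members called for EC359 against control, 6 to 7 for trametinib, 8 to 9 for the combination, 6 to 9 for the combination against EC359 and 5 to 6 for the interaction. With no filter on low counts, and with DESeq2, 10 members were called for the combination against trametinib, since TNFSF10, at 0 counts against 4 to 5, was then tested. A test against a 1.5-fold change in place of the 2-fold limit called 6 members for EC359 against control (3 higher and 3 lower), 3 for the combination against EC359 and 5 for EC359 against trametinib, in place of 3, 0 and 3, because its limit is lower. With total counts as the scaling the median log2 fold change of all genes was -0.15 for EC359, 0.03 for trametinib and -0.14 for the combination, and CFLAR with EC359 was -0.0852 in place of 0.05. Of 1251 values of single members under an alternative, 1212 kept their side of the threshold, 38 lost their call and 1 reversed. Values called in neither fit counted among the 1212 whatever their sign. Library numbers did not pair the samples: deviations of same-numbered libraries correlated at -0.15 to 0.09 over 18 pairs, and with the replicate block 8, 7 and 9 members were called for EC359, trametinib and the combination against control, as without it. The block changed 0 member calls and ended 3 calls of other genes, the DFFB interaction, MLKL for EC359 against control and TNFRSF10C for EC359 against trametinib. The depth limits TNFSF10, at 0 to 5 counts, which the filter removed.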
